A study of Mus musculus with 4 samples.

Results

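The Serpina genes examined here are 9 serine protease inhibitor genes on mouse chromosome 12, taken by name from a count table of 34682 genes: Serpina1a, Serpina1b, Serpina1c, Serpina1d, Serpina1e, Serpina1f, Serpina16, Serpina3n and Serpina9. They were selected for opposite differences between mutant and wild-type ovaries in these same libraries, so those differences are given as descriptions and without a test. RNA was measured in 4 libraries from developing mouse ovaries at E13.5, a day counted from mating. In the mutant group (2 libraries), Sall1 was overexpressed in gonadal somatic cells from a Wt1-BAC, a large insert that carries the promoter and regulatory elements of Wt1 in front of the SALL1 coding sequence. It was moved by piggyBac transposition into female embryonic stem cells, from which transgenic mice were made by morula aggregation. No source used here says whether the embryos sequenced came from the aggregation itself or from later breeding. The wild-type group (wt, 2 libraries) carried no such construct. For the embryonic stem cells, the study's methods name a C57BL/6J or a C57BL/6J-129 hybrid background in one place. In another, they name C57BL/6J blastocysts as the source of the female line that received the construct. For the controls, the study's text names littermates in one place and CD1 gonads in another, and the names of the wild-type columns contain B6. Genotype and any difference of strain between the groups therefore cannot be told apart. No source used here says how many embryos were pooled, or that the replicates came from separate litters, so the error given below is the spread between these libraries, which may be technical.

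Serpins inhibit proteases by offering a reactive loop as bait: the protease cuts the loop, the serpin changes shape, and both stay locked in a dead complex. The Serpina1 genes encode alpha-1-antitrypsin, the main plasma inhibitor of neutrophil elastase, which hepatocytes and the yolk sac secrete. Mice carry several near-identical Serpina1 copies in tandem where humans carry a single gene, and the number of copies differs between inbred strains. Serpina3n encodes an acute-phase inhibitor related to human alpha-1-antichymotrypsin. Serpina9 is known from germinal centre B cells, and Serpina1f has been described in the epididymis.

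On the NCBIM37 build of the mouse genome (the mm9 build of the counts), the 9 genes lay within 745522 bases of chromosome 12, from position 104907018 to 105652539. GENCODE M1 annotates all of them as protein coding. Serpina16, listed there as Gm46 (ENSMUSG00000071179.2), came first at chr12:104907018-104914349 and Serpina1f (ENSMUSG00000021081.6) next at chr12:104926254-104933739. The Serpina1 copies followed in the order Serpina1b at chr12:104966366-104976368, Serpina1d at chr12:105001804-105011802, Serpina1a at chr12:105091799-105104137, Serpina1c at chr12:105133136-105143097 and Serpina1e at chr12:105185141-105197185. Serpina9 lay beyond them at chr12:105232953-105251965. All of these were on the minus strand, whereas Serpina3n, the last at chr12:105644939-105652539, was on the plus strand. An antisense transcript, B430119L08Rik, overlaps Serpina1c in this annotation, and the strand setting of the counting is not given in the sources used here.

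The 5 copies Serpina1a to Serpina1e were close to identical in sequence, and the other 4 genes were not. Over the longest coding sequence of each gene, identity within the 10 pairs of copies lay between 96.3% and 98.5%. It lay between 57.3% and 63.2% over the 20 pairs of a copy with another member, and between 54.9% and 60.7% over the 6 pairs without a copy. Of all 50-base windows in its coding sequence, Serpina1a shared 74.4% with another member, Serpina1b 44.8%, Serpina1c 74.6%, Serpina1d 51.1% and Serpina1e 39.0%. Serpina1f, Serpina16, Serpina3n and Serpina9 shared 0% of such windows. Counts of the separate copies are therefore uncertain, since the read length and the handling of reads with several matches are not given in the sources used here, and the sum over the 5 copies is used below beside them.

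The stretches before the transcription start are shown for the 5 copies because they hold a run common to all of them, and for Serpina1f and Serpina16 because these differed in the other direction. They were taken from RefSeq promoter windows of GRCm38.p6, which reach from 250 bases before to 50 bases after the start and were present for 8 of the 9 members. Each window was then placed by exact match on NCBIM37, minus strand. For Serpina1a and Serpina1e the RefSeq start lies inside the gene as GENCODE M1 draws it, so that their stretches fall within the gene positions given above. Capitals mark GTTAAT, a short run that the copies share, searched on both strands.
Serpina1b, chr12:104976410-104976505: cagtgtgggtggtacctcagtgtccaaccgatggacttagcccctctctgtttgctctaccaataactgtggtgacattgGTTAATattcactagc
Serpina1d, chr12:105011844-105011939: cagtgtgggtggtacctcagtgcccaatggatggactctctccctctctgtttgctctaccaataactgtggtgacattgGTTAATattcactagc
Serpina1a, chr12:105101835-105101930: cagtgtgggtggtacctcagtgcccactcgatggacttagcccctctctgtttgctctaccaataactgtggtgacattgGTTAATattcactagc
Serpina1c, chr12:105143172-105143267: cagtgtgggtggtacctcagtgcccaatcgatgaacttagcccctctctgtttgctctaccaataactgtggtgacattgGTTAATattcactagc
Serpina1e, chr12:105195170-105195265: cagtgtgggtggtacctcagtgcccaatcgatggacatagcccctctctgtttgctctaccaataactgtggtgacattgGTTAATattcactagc
Serpina1f, chr12:104933740-104933839: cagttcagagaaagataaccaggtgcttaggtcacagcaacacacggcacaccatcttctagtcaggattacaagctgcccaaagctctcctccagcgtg
Serpina16, chr12:104914973-104915072: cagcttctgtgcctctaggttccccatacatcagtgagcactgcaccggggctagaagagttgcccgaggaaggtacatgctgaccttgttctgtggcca

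All 5 copies held GTTAAT once, on the strand of the gene, within a run of 59 bases that was the same in each of them. The stretch of Serpina1a occurred at 2 places on chromosome 12, and its whole window at 1. The letters were absent from the windows of Serpina1f, Serpina16 and Serpina3n. Of 32851 windows in the table, 2332 held them, which is 7.10%. A match of letters is a description and not a binding site.

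The libraries held between 11036313 and 17869840 counts. Values are given as counts and as CPM, which divides them by the library total after TMM scaling (a factor that evens out composition), and a floor of 3 counts per library corresponded to between 0.170 and 0.272 CPM. Of the 9 members, 7 passed the filter on low counts, and Serpina3n and Serpina9 did not. Sall1 had 1243 and 1445 counts in the mutants, and 279 and 223 in the wild type, with a log2 fold change of 2.85 ± 0.16 (SE, edgeR adjusted p = 0.00823), so the libraries followed their labels. Defining genes of the ovary were present in every library, among them Foxl2 of pre-granulosa cells at 28.0 to 46.3 CPM and the germ cell genes Dazl and Ddx4. The chi-square per degree of freedom between libraries was 11.8 within the mutants and 13.2 within the wild type, above sampling noise. Across the 15442 genes tested, edgeR called 2 genes higher in the mutants at an adjusted p under 0.05 (0.013%) and 7 lower (0.0453%). An unadjusted edgeR p under 0.05 was reached by 878 of the 15442. The groups did not overlap, with the mutants higher, for 15.8% of the genes tested.

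Serpina1a to Serpina1e were lower on average in the mutant ovaries, and the high values came from single libraries. Summed over the 5 copies, mutant replicate 1 stood at 12.2 CPM and wild-type replicate 1 at 44.0 CPM (757 counts). Mutant replicate 2 stood at 0.864 CPM (13 counts) and wild-type replicate 2 at 0.793 CPM (14 counts). Both libraries numbered 1 were thus high, wild-type replicate 1 the highest, both libraries numbered 2 were low, and the groups overlapped. The mean was 6.56 ± 8.05 CPM in the mutants (SD, n = 2) and 22.4 ± 30.5 CPM in the wild type (SD, n = 2), so the spread in each group exceeded its mean. The fitted log2 fold change, mutant minus wild type, was -1.83 ± 1.49 (SE). Without wild-type replicate 1 it was 2.997, and without mutant replicate 1 it was -4.68, so its direction rested on wild-type replicate 1.

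The gap between replicates of a group was wider than the gap between the groups at the same replicate number. The sum was 55.5 times higher in wild-type replicate 1 than in wild-type replicate 2 (95% interval 32.8 to 102), and 14.2 times higher in mutant replicate 1 than in mutant replicate 2 (8.02 to 27.3). Between the groups, wild-type replicate 1 exceeded mutant replicate 1 by 3.59 times (2.99 to 4.35). The ratio of mutant replicate 2 to wild-type replicate 2 was 1.09 (0.471 to 2.50), an interval that includes equal levels, and the sum in both was close to 1 CPM. These intervals are exact and cover counting error only. Over all genes tested, members included, values of wild-type replicate 2 under 3 counts were set to 3 counts. Only 7 genes then had a ratio between the wild-type libraries at or above that of the sum. A ratio of at least 10 was found for 58.

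**Figure D1:**
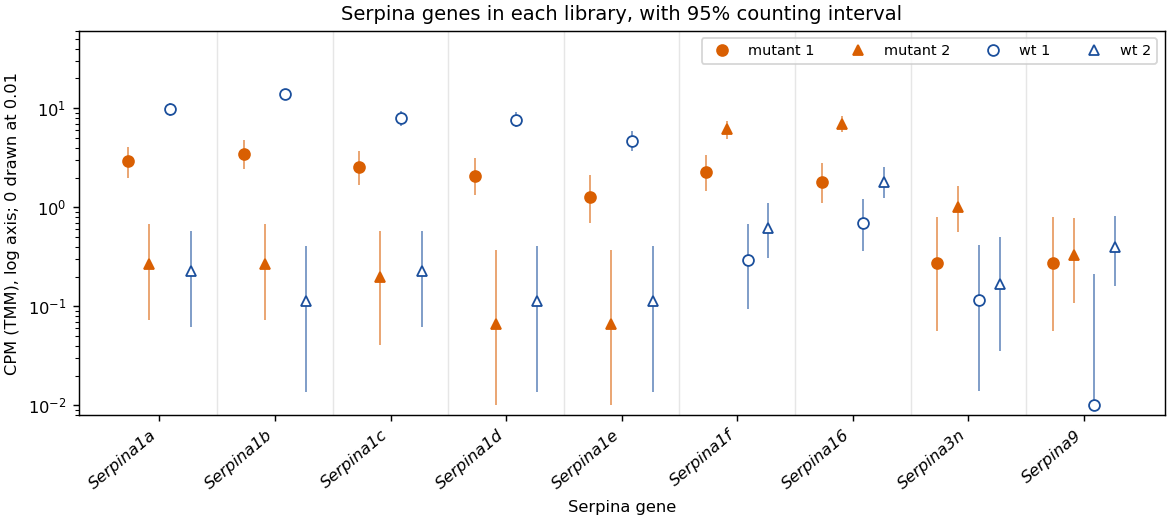
Level of each of the 9 Serpina genes (CPM, log axis) in the 4 libraries, with the exact 95% counting interval of each library as a bar; the 0 of Serpina9 in wt 1 is drawn at the foot of the axis. Serpina1a to Serpina1e are high in wt 1 and mutant 1 and low in wt 2 and mutant 2, while Serpina1f and Serpina16 are highest in mutant 2.

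Each copy repeated the pattern of the sum. Serpina1b, with the highest mean level per length among the copies (3.18 RPKM, CPM per kilobase of exon), had 38 and 4 counts in the mutants and 239 and 2 in the wild type. Serpina1a had 32 and 4 against 168 and 4, and Serpina1c had 28 and 3 against 137 and 4. Every copy was highest in wild-type replicate 1 and second in mutant replicate 1, as the plot of each gene by library shows. Serpina1d had 23 and 1 counts in the mutants against 132 and 2 in the wild type. Serpina1e, the lowest copy, had 14 and 1 against 81 and 2. The groups overlapped for all 5. Their log2 fold changes were -1.72 ± 1.43 for Serpina1a, -1.98 ± 1.57 for Serpina1b, -1.65 ± 1.41 for Serpina1c, -1.94 ± 1.57 for Serpina1d and -1.95 ± 1.48 for Serpina1e (SE). All 5 turned positive without wild-type replicate 1, at 2.37 to 3.88.

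The counts were divided among the copies in nearly the same way in the mutant and the wild-type library that held enough of them. In mutant replicate 1, Serpina1a took 23.7% of the counts (95% exact interval 16.8 to 31.8), and in wild-type replicate 1 it took 22.2% of 757 counts (19.3 to 25.3). Serpina1b took 28.1% (20.8 to 36.5) and 31.6% (28.3 to 35.0), and Serpina1c 20.7% (14.2 to 28.6) and 18.1% (15.4 to 21.0). Serpina1d took 17.0% (11.1 to 24.5) and 17.4% (14.8 to 20.3), and Serpina1e 10.4% (5.79 to 16.8) and 10.7% (8.59 to 13.1). The interval in mutant replicate 1 held the wild-type share for each copy. With 13 and 14 counts, the libraries numbered 2 could not show how their counts were divided.

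**Figure D2:**
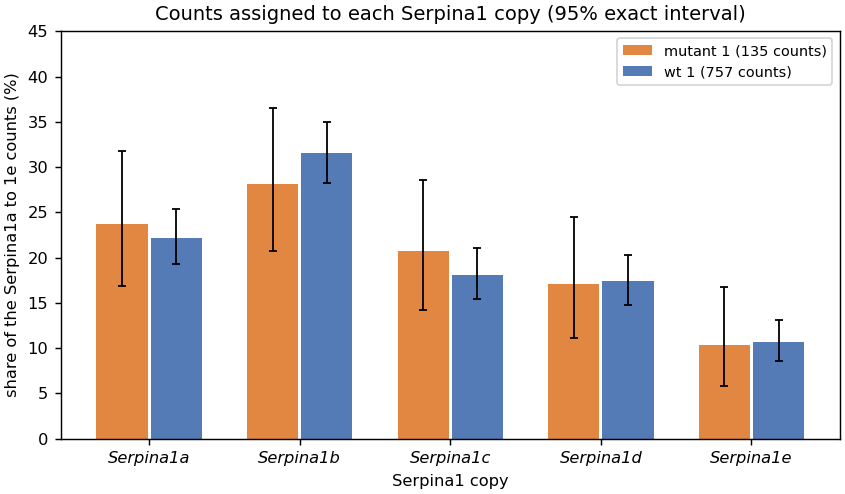
Share of the Serpina1a to Serpina1e counts assigned to each copy (percent) in mutant 1 and wt 1, with exact 95% intervals as bars. The intervals of the libraries overlap for every copy, from Serpina1b at 28.1% and 31.6% to Serpina1e at 10.4% and 10.7%.

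Genes of hepatocytes and the yolk sac were high in the same libraries as the Serpina1 copies. The list held 12 genes, among them Alb (albumin), Afp (alpha-fetoprotein), Ttr (transthyretin) and Apoa1 (apolipoprotein A1), and its summed level was 131.7 and 29.5 CPM in the mutants against 581 and 19.5 CPM in the wild type. Of its 12 genes, 12 were highest in wild-type replicate 1, 12 were higher in replicate 1 than in replicate 2 in both groups, and none was at 0 in all libraries. Afp had 570 and 114 counts in the mutants and 4603 and 39 in the wild type. Alb had 351 and 80 against 2832 and 36. The wild-type libraries thus differed by 121 times for Afp (88.4 to 170) and 80.7 times for Alb (58.1 to 115), and the mutant libraries by 6.83 times (5.57 to 8.42) and 5.99 times (4.69 to 7.73). Of the 11 genes of the list tested, edgeR called 0 (0 at an unadjusted p under 0.05, and 0 by DESeq2), with a median log2 fold change of -1.84 beside -0.00088 over all genes. This direction, too, rested on 1 library: when a library was left out, the log2 fold change lay between -3.97 and 3.16 for Alb, -4.15 and 3.72 for Afp and -4.54 and 4.78 for Ttr, positive without wild-type replicate 1. In whole tissue, fewer cells of a type and less RNA per cell cannot be told apart. The part of hepatocyte or yolk sac RNA in the Serpina1 difference was not tested.

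Set against this list, the Serpina1 counts varied less between libraries. For every 100 counts of the list, there were 9.30 counts of the 5 copies in mutant replicate 1 (95% interval 7.74 to 11.1) and 7.57 in wild-type replicate 1 (7.02 to 8.15). In the libraries numbered 2 there were 2.93 (1.55 to 5.06) in the mutant and 4.06 (2.20 to 6.90) in the wild type. Trf (transferrin), which many other cells also express, made up 68.7% of the list in wild-type replicate 2 and 10.9% in wild-type replicate 1. Without Trf the values were 11.6 (9.66 to 13.9) and 4.83 (2.54 to 8.41) in the mutants and 8.50 (7.88 to 9.15) and 13.0 (6.86 to 22.7) in the wild type. Leaving out Trf was decided after the data had been seen.

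**Figure D3:**
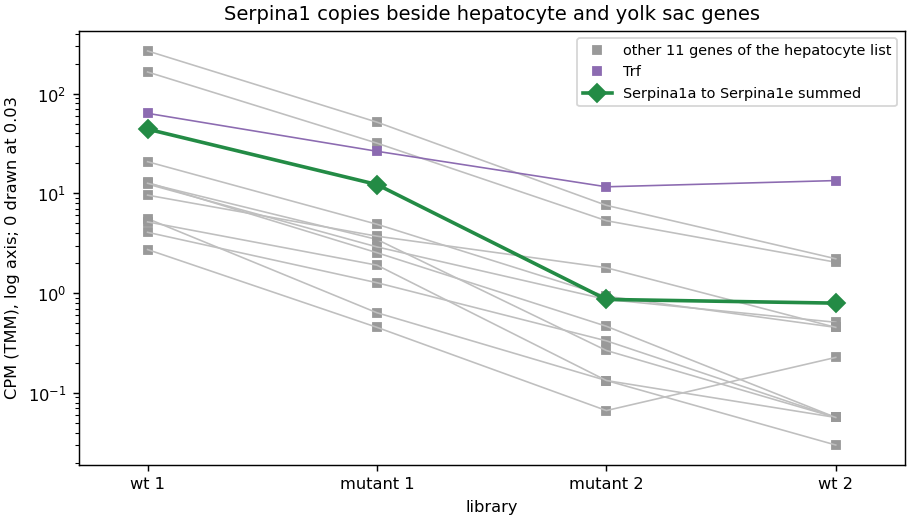
Summed level of Serpina1a to Serpina1e (diamonds) and level of each of the 12 genes of the hepatocyte and yolk sac list (squares, Trf in purple), in CPM on a log axis, in each library; lines join the points of 1 gene. The Serpina1 sum and every gene of the list are highest in wt 1, where they sum to 44.0 and 581 CPM, and lower in both libraries numbered 2 than in both numbered 1 of the same group.

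Serpina1f and Serpina16 were higher in the mutants and did not follow this pattern. Serpina1f had 25 and 92 counts in mutant replicates 1 and 2, against 5 and 11 in the wild type, or 2.27 and 6.11 CPM against 0.291 and 0.623 CPM. Mutant replicate 2 was the highest, both mutants lay above both wild-type libraries, and the mean was 4.19 ± 2.72 CPM against 0.457 ± 0.235 CPM (SD, n = 2 in each group). The ratio of mutant to wild type was 7.81 within replicate 1 (95% interval 2.94 to 26.1) and 9.81 within replicate 2 (5.23 to 20.3). The log2 fold change was 3.19 ± 0.63 (SE), and it lay between 2.29 and 3.84 when each library in turn was left out. Mutant replicate 2 exceeded mutant replicate 1 by 2.70 times (1.72 to 4.38), while the ratio between the wild-type libraries, 2.14, had an interval (0.687 to 7.87) that includes equal levels.

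Serpina16, the neighbour of Serpina1f, had 20 and 105 counts in the mutants against 12 and 32 in the wild type. In CPM these were 1.81 and 6.98 against 0.697 and 1.81, so that mutant replicate 1 and wild-type replicate 2 were level within counting error, mutant replicate 2 lay above them and wild-type replicate 1 below. The mean was 4.40 ± 3.65 CPM in the mutants and 1.26 ± 0.789 CPM in the wild type (SD, n = 2 in each group), and the log2 fold change was 1.82 ± 0.70 (SE). Without mutant replicate 2 it was 0.52. Within replicate 1 the ratio of mutant to wild type was 2.60 (1.21 to 5.84) and within replicate 2 it was 3.85 (2.57 to 5.91). Both groups were higher in replicate 2, by 3.85 times in the mutants (2.37 to 6.55) and 2.60 times in the wild type (1.30 to 5.54), the reverse of the order of the Serpina1 copies.

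Serpina3n and Serpina9 were close to the floor. Serpina3n had 3 and 15 counts in the mutants against 2 and 3 in the wild type, and its groups did not overlap in CPM. Mutant replicate 1 and wild-type replicate 2 both had 3 counts, and their gap (0.272 against 0.170 CPM) came from library depth alone. Pooled over the libraries of a group, 18 counts against 5 gave a ratio of 4.81 (1.72 to 16.6), and the counts came mainly from mutant replicate 2. Without the filter on low counts, its log2 fold change was 2.13 ± 0.88 (SE). Serpina9 had 3 and 5 counts against 0 and 7. Its pooled ratio of 1.53 (0.484 to 4.95) includes equal levels, its groups overlapped, and a change was not detectable at this depth.

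In all, 4 of the 9 members were higher on average in the mutants and 5 were lower. The groups did not overlap for 3 of them (Serpina1f, Serpina16 and Serpina3n), each higher in the mutants. Over all genes tested this share was 15.8%, but Serpina3n did not pass the filter and is not among those genes. For Serpina16 and Serpina3n, mutant replicate 1 and wild-type replicate 2 were level within counting error. As the members were chosen on this comparison, nothing is read from these counts. Without wild-type replicate 1, 8 of the members were higher in the mutants.

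Per length of exon, the order of the members turned round between libraries. In wild-type replicate 1 the levels fell from Serpina1b at 9.96 RPKM through Serpina1c at 5.85, Serpina1d at 5.50, Serpina1a at 4.31 and Serpina1e at 2.91 to Serpina16 at 0.441 and Serpina1f at 0.0912 RPKM. In mutant replicate 2 Serpina16 led at 4.41 RPKM and Serpina1f followed at 1.92, and the highest copy, Serpina1b, stood at 0.191 RPKM. The mean over the 4 libraries was 3.18 RPKM for Serpina1b, 2.01 for Serpina1c, 1.79 for Serpina16, 1.78 for Serpina1d, 1.45 for Serpina1a, 0.952 for Serpina1e, 0.730 for Serpina1f, 0.188 for Serpina3n and 0.0681 for Serpina9. No pair of neighbours in that order from Serpina1b to Serpina1f was further apart than the spread between libraries. The order among the copies is also uncertain. They share unequal parts of their coding sequence, and the handling of reads with several matches is not given in the sources used here.

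Different genes had the profiles most like those of the copies and of the other members. Likeness was the Euclidean distance between log2 CPM profiles centred on their mean, over 4 libraries, so it is a description and many genes can come close. Nearest to Serpina1a were Fgb (fibrinogen beta chain) at 0.33, Ambp at 0.48 and Apoa1 at 0.58. Nearest to Serpina1b were Ttr at 0.31, Alb at 0.54 and Serpina6 at 0.70. For Serpina1c they were Fgb, Alox15 and Retnla. For Serpina1d they were Retnla, Saa3 (an acute-phase serum amyloid) and Fgb, and for Serpina1e Cd5l, Alox15 and Vsig4. Several of these genes had 0 to 5 counts in a library numbered 2. Cd5l and Vsig4 are known from macrophages. Of the macrophage list, 4 of 6 symbols were tested (Adgre1 and Emr1 name the same gene), and edgeR called 0 (0 at an unadjusted p under 0.05, 0 by DESeq2). The list summed to 56.0 and 32.5 CPM in the mutants and 43.7 and 32.0 CPM in the wild type. Its part in the result was not tested.

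For Serpina1f the nearest were Il13ra2 (a decoy receptor for interleukin 13) at 0.79, F2rl1 (a protease-activated receptor) at 1.06 and Akr1c18 (a progesterone-converting enzyme) at 1.14. Il13ra2 had 105 and 222 counts in the mutants against 34 and 52 in the wild type. For Serpina16 they were Slc26a7 at 0.45, Dnah11 at 0.51 and Cela1 (an elastase) at 0.66. Slc26a7, an anion transporter, had 41 and 159 counts against 31 and 64, and Cela1 had 41 and 148 against 30 and 87. Mutant replicate 2 was the highest library for these genes, as for Serpina1f and Serpina16. They were chosen by likeness to those profiles, so nothing is read from this.

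Of the 55 other genes named as serpins in the table, 24 passed the filter and edgeR called 0 of them (3 at an unadjusted p under 0.05). DESeq2 called 1, Serpinb6b, where it called 0.278% of 15127 genes higher and 0.416% lower. The median log2 fold change of the 24 was 0.02, with 13 positive and 11 negative, beside -0.00088 over all genes. Serpinb6b, an intracellular inhibitor, had 939 and 1127 counts in the mutants against 853 and 862 in the wild type, or 85.2 and 74.9 CPM against 49.6 and 48.8 CPM. Its groups did not overlap, and its log2 fold change was 0.70 ± 0.11 (SE, edgeR adjusted p = 0.157, DESeq2 adjusted p = 0.0022). Serpini1, which encodes neuroserpin, had 24.0 and 38.7 CPM against 48.5 and 53.2 CPM, with a log2 fold change of -0.69 ± 0.21 (SE, edgeR adjusted p = 0.625).

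Among the other serpins of high CPM, Serpinh1 (the collagen chaperone HSP47) ranged from 485 to 621 CPM with a log2 fold change of -0.19 ± 0.12. Serpinb6a ranged from 286 to 310 CPM (-0.05 ± 0.09), Serpine2 (protease nexin 1) from 39.2 to 63.2 CPM (0.34 ± 0.18), and Serpinf1 (pigment epithelium-derived factor) from 46.1 to 49.9 CPM (0.08 ± 0.11). The Serpina1 sum, at 0.793 to 44.0 CPM, thus varied more between libraries than any of these.

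Some other serpins that the liver secretes were also highest in wild-type replicate 1. Serpina6, which encodes corticosteroid-binding globulin and lies beside Serpina16, had 86 and 20 counts in the mutants against 664 and 6 in the wild type (log2 fold change -2.15 ± 1.50, and between -3.86 and 3.68 when a library was left out). Serpinc1 (antithrombin) had 8 and 2 against 72 and 1. Serpind1 (heparin cofactor II) had 7 and 5 against 78 and 2, and Serpinf2 (alpha-2-antiplasmin) had 23 and 10 against 245 and 5. Each of these 4 was highest in wild-type replicate 1. They were picked out after their values had been seen, apart from Serpina6, and other serpins known from plasma did not share the profile: Serping1 (C1 inhibitor) had 35.6 and 31.4 CPM in the mutants against 34.8 and 33.1 CPM in the wild type.

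Within the cluster, 6 of the 16 other Serpina genes passed the filter, and edgeR and DESeq2 called 0 of them (1 at an unadjusted p under 0.05). Serpina3a had 74 and 123 counts in the mutants against 68 and 88 in the wild type, with a log2 fold change of 0.74 ± 0.26 (SE, edgeR adjusted p = 0.752) and no overlap between the groups. Serpina3g had 125 and 68 against 164 and 103, with a log2 fold change of 0.03 ± 0.45. Serpina3f had 13 and 1 counts in the mutants against 11 and 2 in the wild type, Serpina3h 15 and 2 against 13 and 1, and Serpina3i 26 and 5 against 23 and 7. Like the Serpina1 copies, these genes and Serpina3g were higher in replicate 1 of both groups, but in CPM mutant replicate 1 was the highest. Serpina3a was higher in replicate 2 of both groups. Serpina3g and its relatives Serpina3f, Serpina3h and Serpina3i are themselves close copies of one another, which makes their separate counts uncertain.

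Beyond the serpins, 12 of the 15 neighbouring genes in the table were tested, and edgeR called 0 of them (2 at an unadjusted p under 0.05). DESeq2 called 2, Ifi27 and Ppp4r4, both higher in the mutants. Ifi27, an interferon-induced gene matched to Ifi27l1 of the annotation, had 473 and 492 counts in the mutants against 322 and 312 in the wild type (log2 fold change 1.05 ± 0.16, edgeR adjusted p = 0.145, DESeq2 adjusted p = 0.000607). Ppp4r4, a regulatory subunit of protein phosphatase 4 and, on the side of Serpina16, the nearest neighbour that is no serpin, had 367 and 714 counts against 376 and 381 (0.90 ± 0.18, edgeR adjusted p = 0.267, DESeq2 adjusted p = 0.0121). In CPM, Ppp4r4 stood at 33.3 and 47.5 in the mutants and at 21.8 and 21.6 in the wild type, so mutant replicate 2 was again the highest. The other tested neighbours had log2 fold changes of 0.23 for Otub2, 0.06 for Ddx24, -0.38 for Asb2, 0.16 for Ifi27l2a, 0.01 for Dicer1, 0.15 for Clmn, 0.02 for Syne3, -0.20 for Glrx5, 0.19 for Tcl1 and 0.38 for Bdkrb2.

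**Figure D4:**
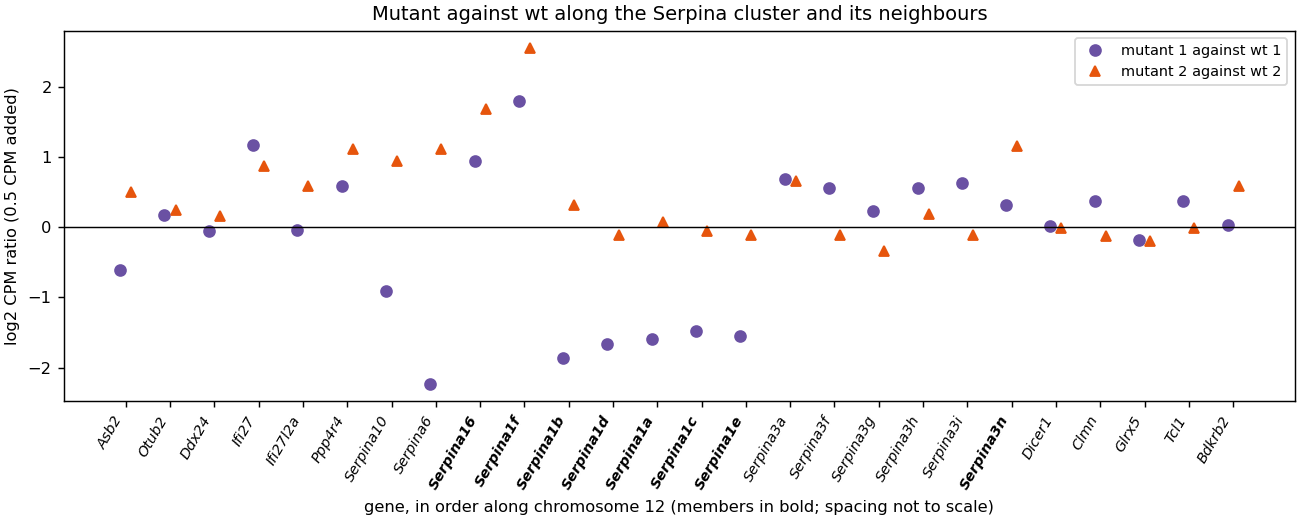
Log2 ratio of mutant to wt CPM (0.5 CPM added), within replicate 1 and within replicate 2, for 26 genes in their order along chromosome 12 (genes with at least 20 counts in all; spacing not to scale; members in bold). Serpina16 and Serpina1f lie above 0 in both replicates, while the neighbouring Serpina1 copies lie between -1.87 and -1.48 in replicate 1 and between -0.11 and 0.32 in replicate 2.

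Of the proteases that serpins inhibit, 12 of 26 were tested and edgeR called 0 (2 at an unadjusted p under 0.05, 0 by DESeq2). Plat, the tissue plasminogen activator, stood at 73.9 and 75.6 CPM in the mutants against 93.5 and 101 CPM in the wild type (log2 fold change -0.38 ± 0.10, edgeR adjusted p = 0.459), and Plau, the urokinase, had a log2 fold change of -0.65 ± 0.24 (edgeR adjusted p = 0.773). The median of the 12 was -0.19. All 7 receptors and receptor partners that take up serpin complexes were tested, with 0 called (1 at an unadjusted p under 0.05, 0 by DESeq2) and a median of -0.13. The main one, Lrp1, ranged from 393 to 468 CPM. Of 14 genes of protein folding and export in the endoplasmic reticulum, all 14 were tested and 0 called (0 at an unadjusted p under 0.05, 0 by DESeq2), with a median of -0.01 and the chaperone Hspa5 between 696 and 739 CPM.

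Of the regulators of Serpina genes in other tissues, 6 of 12 liver transcription factors were tested and 0 called by edgeR (0 at an unadjusted p under 0.05, 0 by DESeq2), with a median log2 fold change of 0.04. Hnf4a had 4 and 1 counts in the mutants against 26 and 3 in the wild type and did not pass the filter. In the list of acute-phase genes and STAT3 signalling, 13 of 20 were tested and 0 called (2 at an unadjusted p under 0.05, 0 by DESeq2), with a median of 0.02. Saa3 had 70 and 3 counts against 249 and 5, the profile of the Serpina1 copies, while Stat3 itself had a log2 fold change of 0.02. Of 12 glucocorticoid response genes, 10 were tested and 0 called (0 at an unadjusted p under 0.05, 0 by DESeq2), with a median of 0.05.

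Of 7 genes known to differ between inbred strains, 5 were tested and edgeR called 0 (0 at an unadjusted p under 0.05, 0 by DESeq2), with a median log2 fold change of 0.05. Nnt, which is disrupted in C57BL/6J, had 1163 and 1443 counts in the mutants against 1634 and 1574 in the wild type (0.13 ± 0.10). Ifi202b was listed at 0 in every library. A gene count cannot show which allele a library carries, and the part of a strain difference in the Serpina values was not tested.

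Other cell types moved less than the hepatocyte list. Red blood cell genes summed to 3105 and 852 CPM in the mutants against 3402 and 1649 CPM in the wild type, again higher in both libraries numbered 1. Of the 4 of 5 tested, edgeR called 0 (1 at an unadjusted p under 0.05, 1 by DESeq2). Genes of the mesonephric duct and tubules summed to 165 and 172 CPM against 150 and 172 CPM, with 0 of 5 called by edgeR or DESeq2 (1 at an unadjusted p under 0.05). In that list Pax8 had 153 and 266 counts against 156 and 160 (log2 fold change 0.80 ± 0.19, edgeR adjusted p = 0.372), and 2 of the 5 genes were highest in mutant replicate 2. Pre-granulosa genes summed to 515 and 505 CPM against 445 and 476 CPM (0 of 5 called by edgeR or DESeq2, 2 at an unadjusted p under 0.05).

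All 4 genes of the gonadal interstitium had negative log2 fold changes, with 0 called by edgeR (2 at an unadjusted p under 0.05) and 2 by DESeq2. These were Tcf21, a stromal transcription factor, at -1.10 ± 0.14 (edgeR adjusted p = 0.0811), and Pdgfra, at -0.55 ± 0.12 (edgeR adjusted p = 0.301). Germ cell genes summed to 1349 and 1554 CPM in the mutants and 1389 and 1548 CPM in the wild type (0 of 5 called by edgeR or DESeq2, 0 at an unadjusted p under 0.05). Endothelial genes summed to 383 and 358 against 398 and 406 CPM (0 of 4 called by edgeR or DESeq2, 1 at an unadjusted p under 0.05). The part of these cell types in the levels of Serpina1f and Serpina16 was not tested.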

How the data were processed

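RNA of 4 E13.5 ovary libraries (mutant 2, wt 2) was sequenced by Illumina HiSeq. The authors deposited raw counts per gene for all libraries in 1 table, made with STAR 2.6.1d on mm9 (per the submitters' processing notes) and summarizeOverlaps; annotation, strand setting and multi-mapping are not given in the sources used here. All count columns were mapped to samples by genotype and replicate number. The members and gene lists were chosen with earlier results of these data known; the names in the text follow a written rule (all members, called or most expressed list genes, tested neighbours, the 3 most alike genes), and Serpinc1, Serpind1, Serpinf2, Serping1, Hnf4a and Ifi202b were named after their values had been seen.

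From the counts, edgeR 4.0.16 in R 4.3.3 (TMM, filterByExpr, 15442 genes, trended dispersion, quasi-likelihood F-test, Benjamini-Hochberg, genotype as only factor) gave log2 fold changes and adjusted p. Standard errors came from the fold change and F. DESeq2 1.42.0, RLE, other filters, a replicate block and left-out libraries were alternatives. On simulated data (15215 genes tested), edgeR recovered 83.5% of 200 genes given a log2 change of 2, and 4.57% of calls were false. Those libraries were drawn independently at the trended dispersion. The rates need not hold for genes that spread more, such as the Serpina1 copies. Counting intervals are 95% exact. Totals of 11036313 to 17869840 counts set the precision: a floor of 3 counts is at most 0.272 CPM. Positions and exon lengths are from GENCODE M1 (NCBIM37), promoters from RefSeq (GRCm38.p6). Values of some listed genes are not reported here.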

Additional observations from a re-analysis of the deposited data

How the results depend on the processing

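The count of 9 genes called (2 higher in the mutants, 7 lower) was 105 with DESeq2 (42 higher, 63 lower), 28 without a filter, 19 with at least 10 counts in every library, and 4 to 130 when a library was left out (130 without mutant replicate 1, 38 without mutant replicate 2, 4 without wild-type replicate 2). Other serpins called numbered 0, against 1 with DESeq2 and 0 to 2 with a library left out (2 without mutant replicate 2); genes called in the other lists numbered 0, against 5 with DESeq2, 1 without a filter, 1 with at least 10 counts in every library and 0 to 9 with a library left out (9 without mutant replicate 1, 2 without mutant replicate 2). With a group of 1 library, that library is assumed to vary like the others. The log2 fold change of the Serpina1a to Serpina1e sum, -1.83, lay between -4.68 and 2.997 when a library was left out, and it was positive without wild-type replicate 1. So were those of Serpina1a (2.70), Serpina1b (3.88), Serpina1c (2.48), Serpina1d (3.07) and Serpina1e (2.37), and members higher in the mutants then numbered 8 rather than 4 (range 4 to 8). Counting Serpina1f into the sum gave -1.10. Leaving out both libraries of 1 replicate number was an alternative chosen after seeing the data. Its values are log2 CPM ratios of the remaining libraries with 0.5 CPM added, not fitted log2 fold changes. Without both libraries numbered 1, the ratio of the sum was 0.08 (0.12 with nothing added), and 5 members were higher. Without both numbered 2 it was -1.80 (-1.84 with nothing added). For Serpina9, fitted at 0.58, the ratio without the libraries numbered 1 was -0.11 (-0.26 with nothing added). Serpina1f and Serpina16 were higher in the mutants under every alternative that gave them a value. With at least 10 counts in every library, Serpina16 is the only member left. No source says what libraries of the same replicate number share. The column names give each such pair consecutive library numbers. For each gene that passed the filter, the deviation of replicate 1 from its group mean was taken in log2 CPM. Over these genes, the correlation of that deviation in the mutants with that in the wild type was 0.481. With the replicate number as a block, 385 genes were called (180 higher, 205 lower), 2 other serpins (Serpinb6b and Serpini1) and 14 genes of the other lists (interstitium 3 lower, red blood cell 3 lower, neighbours 2 higher, proteases 1 higher and 1 lower, and 1 each of pre-granulosa and mesonephric genes, higher, and of endothelial and hepatocyte genes, lower), and the log2 fold change was -1.58 for the sum, 3.16 for Serpina1f and 1.75 for Serpina16. The cause of these changes was not tested. Depth limits the libraries numbered 2, where the 5 copies had 13 and 14 counts in all.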
